A study of Mus musculus with 6 samples.

Results

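The alarmin receptors of lung innate lymphoid cells (ILCs) are described here through 8 subunit genes: Il1rl1 and Il1rap for the IL-33 receptor, Crlf2 and Il7r for the TSLP receptor, Il17rb and Il17ra for the IL-25 receptor, and Il18r1 and Il18rap for the IL-18 receptor. The genes were taken by name from a count table of 14416 genes, and all 8 passed the filter on low counts that left 11382 genes for testing. RNA came from Lin-Thy1.2+ ILCs of the lungs of C57BL/6J mice, with 3 samples from Rbm3 knockout mice (RBM3KO) and 3 from wild-type mice (WT). Both genotypes had been given the mould allergen Alternaria alternata, 25 µg on each of 3 occasions within 7 days, so an unchallenged state was not analysed here. The RBM3 protein binds RNA and is induced by cold, and the title of the series names it as a negative regulator of ILCs and of inflammation in the lung. How the knockout was made, and whether samples came from single or pooled animals, was not stated in the labels. P-values therefore weigh the difference between genotypes against the spread of these samples within a genotype, and part of that spread may be technical.

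Alarmins are cytokines that damaged or stimulated barrier cells release, and group 2 ILCs (ILC2s) read them through receptors of several families. IL-33 binds ST2, the product of Il1rl1, and IL-18 binds the product of Il18r1. Each complex then recruits an accessory chain (from Il1rap or Il18rap) and signals through the adaptor MyD88 to NF-kB and MAP kinases. TSLP binds the product of Crlf2 together with the IL-7 receptor alpha chain from Il7r and signals through JAK kinases and STAT5. IL-25 binds the product of Il17rb, which pairs with the product of Il17ra and signals through the adaptor Act1. In the mouse lung IL-33 is known as a strong inducer of IL-5 and IL-13 in ILC2s.

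Library totals ran from 7498247 to 16936670 counts in RBM3KO and from 13339633 to 25068137 counts in WT. Levels are TMM-normalised CPM (counts scaled to library size), where TMM is edgeR's scaling between libraries, and differences are log2 fold changes of RBM3KO over WT with a standard error (SE). Rbm3 itself had 26.5, 22.4 and 31.6 CPM in the RBM3KO libraries and 269.7, 314 and 293 CPM in the WT libraries, which matched the labels. Thy1, the gene of the sorting marker, stood at 103 ± 7.17 CPM in RBM3KO and 104 ± 14.6 CPM in WT (SD, n = 3 each). Id2, a regulator that ILCs require, stood at 2067 ± 219.9 CPM in RBM3KO and 1700 ± 64.3 CPM in WT (SD, n = 3 each).

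Of the 8 subunits 0 passed edgeR's quasi-likelihood test at an adjusted p under 0.05, where 1.25% of all tested genes passed and 0.246% passed as higher in RBM3KO. The genotypes did not overlap for 3 subunits, Il1rl1, Il1rap and Il7r, each of which was higher in all 3 RBM3KO libraries than in any WT library. Among all tested genes 18.9% were separated, 8.43% in that direction and 10.5% in the other. The same 3 subunits had an unadjusted edgeR p under 0.05, as did 12.3% of tested genes, of which those higher in RBM3KO made up 5.46% of tested genes. DESeq2, run as an alternative, called these 3 subunits higher and called 3.50% of its genes. Limma-voom called 0 of the subunits and 1.63% of genes. The estimate was above 0 for 7 of the 8 subunits, against 50.9% of tested genes, and the median log2 fold change of the subunits was 0.27, against 0.01 for all tested genes. In bulk RNA, fewer cells of a type and less RNA per cell cannot be told apart. Over all genes the number called was 142, and it was 78, 41 and 99 without RBM3KO replicates 1, 2 and 3 and 12, 53 and 67 without WT replicates 1, 2 and 3.

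**Figure D1:**
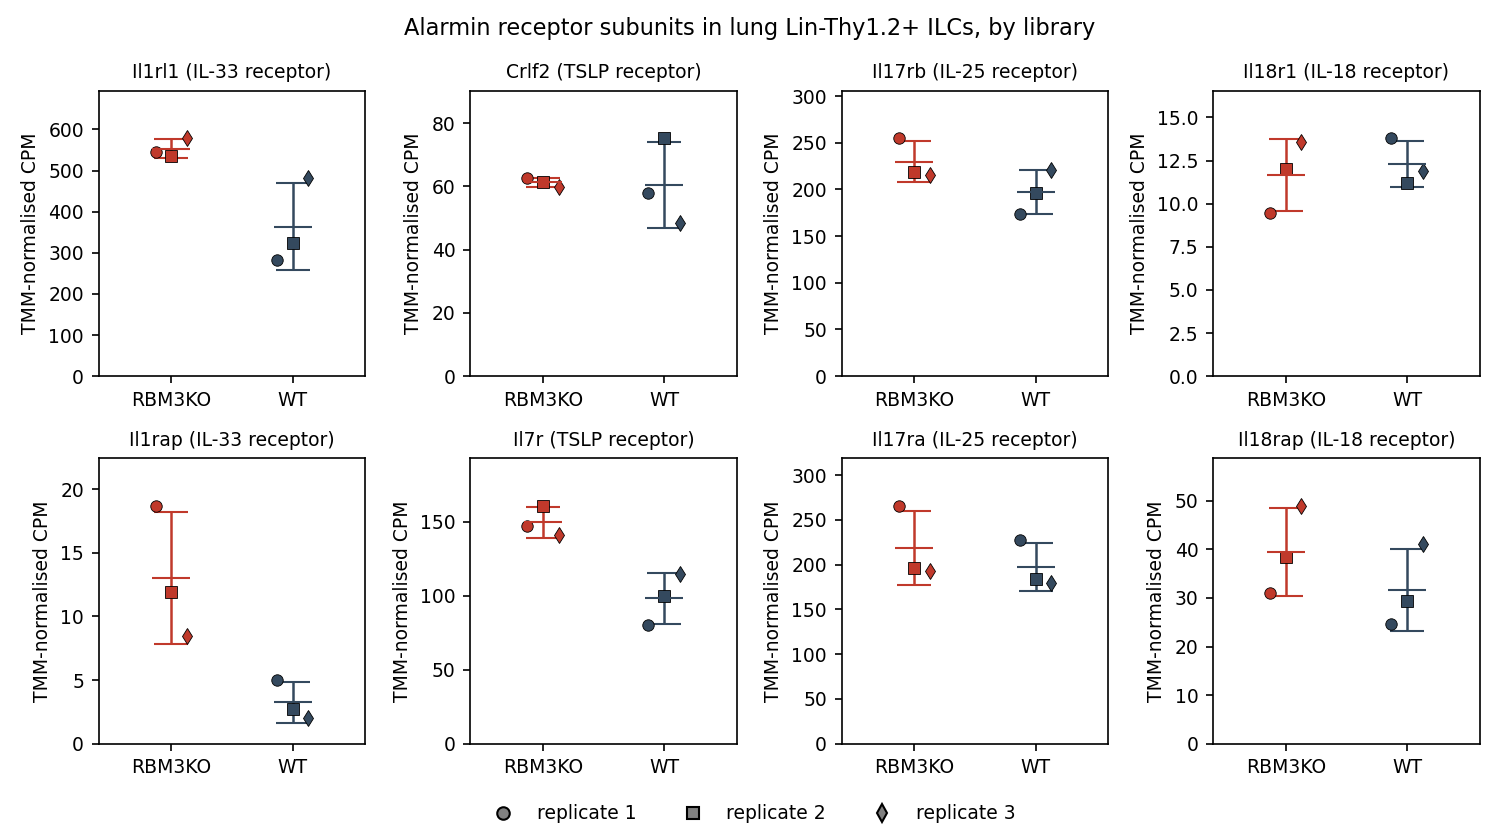
TMM-normalised CPM of the 8 subunits in each library, RBM3KO left and WT right, with the 3 libraries of a genotype as separate symbols and the mean ± SD as bars. Il1rl1, Il1rap and Il7r show no overlap between the genotypes, and in the other 5 panels the genotypes overlap.

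**Figure D2:**
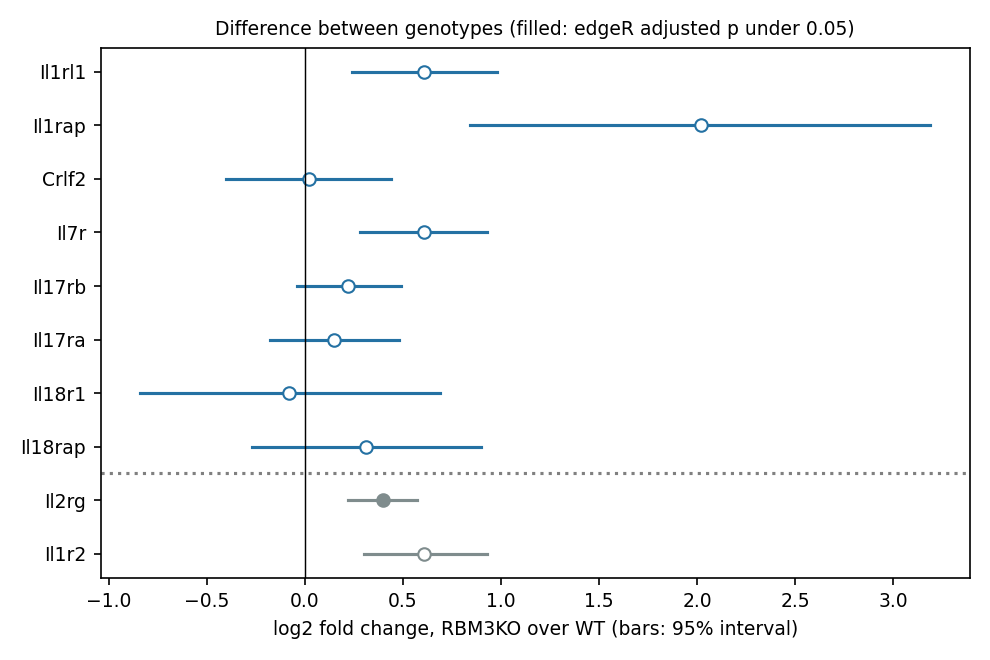
Log2 fold change of RBM3KO over WT with its 95% interval for the 8 subunits and, under the dotted line, for Il2rg and Il1r2. The intervals of Il1rl1, Il1rap and Il7r lie above 0 before adjustment for multiple tests, and Il2rg alone is filled, at an edgeR adjusted p of 0.0393.

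The IL-33 receptor held both the subunit with the highest level per exon length in RBM3KO and the one with the lowest in either genotype. Il1rl1, which encodes the ligand-binding chain ST2, had 546, 535 and 579 CPM in RBM3KO replicates 1, 2 and 3, against 283, 324 and 483 CPM in WT replicates 1, 2 and 3. The RBM3KO libraries lay close together, while WT replicate 3 stood well above the other WT libraries and nearest to RBM3KO. The means were 553 ± 23 CPM in RBM3KO and 363 ± 106 CPM in WT (SD, n = 3 each), a log2 fold change of 0.61 (SE 0.17, edgeR adjusted p = 0.138) or 1.52-fold (95% interval 1.18 to 1.97). Il1rl1 passed without WT replicate 3, the deepest library, with an estimate of 0.86 on the log2 scale (edgeR adjusted p = 0.0146), while none of the edgeR or limma-voom fits on all 6 libraries called the gene. Across all alternatives the adjusted p ran from 0.0114 to 0.426. The gene has 5 annotated protein-coding transcripts (GENCODE M21), and a count per gene does not separate the membrane form of ST2 from its soluble decoy form.

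Il1rap, which encodes the accessory chain that IL-33 shares with IL-1 and IL-36, had the largest estimate of the 8 at a low level. Its raw counts were 287, 199 and 63 in the RBM3KO libraries and 68, 46 and 51 in the WT libraries, which corresponds to 18.7, 11.9 and 8.48 CPM in RBM3KO and 5.03, 2.7 and 2 CPM in WT. All RBM3KO libraries were above all WT libraries, and within each genotype replicate 1 was the highest. Its log2 fold change reached 2.02 (SE 0.53, edgeR adjusted p = 0.123), or 4.04-fold with a 95% interval of 1.79 to 9.15. Leaving out single libraries moved it between 1.66 and 2.47 and gave adjusted p values from 0.119 to 0.34. Of its exon bases, 4.86% overlap the antisense gene Gm20319, whose reads could not be told apart without strand.

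The promoters of these genes are shown because Il1rl1 has 2 annotated start regions and because the subunits with separated genotypes differ in base content. The sequences run from 250 bases before to 50 bases after the start site (RefSeq, GRCm38.p6, 5′ to 3′ on the gene's strand), with CG dinucleotides in capitals. The upstream start region of Il1rl1 lies at chr1:40429320-40429619 and the downstream one at chr1:40439379-40439678, both on the plus strand, and that of Il1rap at chr16:26581455-26581754 on the plus strand.
Il1rl1 upstream promoter: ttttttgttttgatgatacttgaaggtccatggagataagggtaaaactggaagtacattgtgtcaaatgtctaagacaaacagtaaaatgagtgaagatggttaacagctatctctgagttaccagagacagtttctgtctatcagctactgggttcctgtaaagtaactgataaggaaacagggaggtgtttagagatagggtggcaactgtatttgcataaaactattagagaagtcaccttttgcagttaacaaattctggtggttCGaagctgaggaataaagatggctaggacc
Il1rl1 downstream promoter: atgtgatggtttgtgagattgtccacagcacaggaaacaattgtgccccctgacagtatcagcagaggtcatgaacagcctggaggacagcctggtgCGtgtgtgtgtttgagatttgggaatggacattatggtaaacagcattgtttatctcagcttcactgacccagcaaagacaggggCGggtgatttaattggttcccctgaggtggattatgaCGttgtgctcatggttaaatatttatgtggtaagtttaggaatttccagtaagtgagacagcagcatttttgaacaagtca
Il1rap promoter: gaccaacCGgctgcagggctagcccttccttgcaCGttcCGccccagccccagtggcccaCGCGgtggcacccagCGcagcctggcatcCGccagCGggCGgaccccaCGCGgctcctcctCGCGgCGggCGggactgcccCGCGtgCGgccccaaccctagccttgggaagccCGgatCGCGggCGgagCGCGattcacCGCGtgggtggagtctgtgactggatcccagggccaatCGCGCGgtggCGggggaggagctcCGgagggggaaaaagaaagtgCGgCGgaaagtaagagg
The Il1rl1 windows hold 1 and 3 CG dinucleotides and 38.7% and 44.7% G and C, whereas the Il1rap window holds 33 CG dinucleotides and 72% G and C. The median over 32851 promoters of the same length was 7 CG dinucleotides and 52.7% G and C.

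Of the TSLP receptor chains, Il7r was separated between the genotypes and Crlf2 was not, and neither passed the test. Il7r encodes the IL-7 receptor alpha chain, which serves both TSLP and IL-7, and it had 147, 161 and 141 CPM in the RBM3KO libraries, against 80.3, 99.6 and 115 CPM in the WT libraries. No WT library reached the lowest RBM3KO library, and WT replicate 3 was again the highest of its genotype. The means were 149.7 ± 10.1 CPM in RBM3KO and 98.3 ± 17.3 CPM in WT (SD, n = 3 each), with a log2 fold change of 0.61 (SE 0.15, edgeR adjusted p = 0.0922) and a 95% interval of 1.21-fold to 1.91-fold. The gene passed at a stricter filter of at least 10 CPM in 3 libraries (edgeR adjusted p = 0.0423) and with DESeq2 (adjusted p = 0.014), and over all alternatives the adjusted p ran up to 0.316.

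Crlf2, which encodes the chain specific to TSLP, had 62.7, 61.4 and 59.8 CPM in RBM3KO and 58, 75.3 and 48.4 CPM in WT. The WT libraries lay on both sides of the tightly grouped RBM3KO libraries. Its log2 fold change of 0.02 (SE 0.19, edgeR adjusted p = 0.987) was near 0, and the 95% interval ran from 0.756-fold to 1.36-fold. Its direction was not stable, since it lay between -0.12 and 0.2 when single libraries were left out.

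The Il7r promoter, at chr15:9529827-9530126 on the minus strand, is shown for comparison with those of Il1rl1 and Il1rap, again with CG dinucleotides in capitals.
Il7r promoter: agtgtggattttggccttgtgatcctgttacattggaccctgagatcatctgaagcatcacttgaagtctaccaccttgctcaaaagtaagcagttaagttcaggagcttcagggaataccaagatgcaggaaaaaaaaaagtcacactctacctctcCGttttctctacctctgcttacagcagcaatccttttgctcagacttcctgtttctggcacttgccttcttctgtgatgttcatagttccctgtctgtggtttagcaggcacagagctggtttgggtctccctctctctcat
It holds 1 CG dinucleotide and 45.7% G and C, like the upstream window of Il1rl1 and unlike that of Crlf2, with 31 CG dinucleotides and 71.7% G and C. The Il17rb window had 32 CG dinucleotides, the Il18rap window 4, and the 3 windows annotated for Il18r1 had 5, 7 and 8. Low or high CG content thus occurred both among subunits with separated genotypes and among those that overlapped. The motif GATAA, the core bound by GATA factors, was searched on both strands and occurred 2 times in the upstream and 1 time in the downstream window of Il1rl1, 1 time each in those of Il17rb and Il18rap, and 0 times in those of Il1rap, Crlf2, Il7r and Il18r1. Of all promoters of this length 25.4% hold it. The motif GGGCGG, a GC box, occurred 4 times in the Il1rap window, 6 times in that of Crlf2, 1 time each in the downstream Il1rl1 window and that of Il17rb, and 0 times in the other windows searched, against 35.7% of all promoters with at least 1 match. The Il17ra promoter was not analysed here. These matches describe letters in the window and are no evidence of binding.

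The IL-25 receptor chains were among the higher subunits and their genotypes overlapped. Il17rb, the chain that gives the receptor its specificity for IL-25, had 255, 219 and 215 CPM in RBM3KO and 174, 196 and 221 CPM in WT. Its log2 fold change of 0.22 (SE 0.12, edgeR adjusted p = 0.505) came with a 95% interval of 0.971-fold to 1.41-fold. It stayed above 0 without each library in turn, between 0.14 and 0.31. Il17ra, the signalling chain shared by IL-17A, IL-17F and IL-25, had 266, 196 and 193 CPM in RBM3KO and 228, 184 and 180 CPM in WT. Replicate 1 was the highest library in both genotypes, and the log2 fold change of 0.15 (SE 0.15, edgeR adjusted p = 0.798) had a 95% interval of 0.882-fold to 1.39-fold. Without single libraries it lay between -0.02 and 0.26. Of the exon bases of Il17rb, 3.8% overlap Actr8 on the other strand.

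The IL-18 receptor chains had low levels and overlapping genotypes. Il18r1, the ligand-binding chain, had 9.46, 12 and 13.6 CPM in RBM3KO and 13.8, 11.2 and 11.9 CPM in WT, from 101 to 201 counts in RBM3KO and 187 to 304 counts in WT. Its log2 fold change of -0.08 (SE 0.35, edgeR adjusted p = 0.971) was near 0, and the 95% interval ran from 0.559-fold to 1.61-fold. Without single libraries the estimate lay between -0.2 and 0.06. Il18rap, the accessory chain, had 31, 38.5 and 49 CPM in RBM3KO and 24.6, 29.3 and 41.1 CPM in WT. Within both genotypes replicate 3 was the highest and replicate 1 the lowest, with a log2 fold change of 0.31 (SE 0.26, edgeR adjusted p = 0.739) and a 95% interval of 0.828-fold to 1.86-fold. Its estimate was 0.13 without RBM3KO replicate 3, 0.16 without WT replicate 1 and 0.55 without WT replicate 3. In lymphocytes IL-18 receptors are best known from NK cells, ILC1s and T cells. The 8 ILC1 and NK markers together, as CPM of the total count, ran from 153 to 208 in RBM3KO and from 155 to 480 in WT, led by Gzma, a granule protease gene, at 106 ± 33.4 CPM in RBM3KO and 161 ± 79.1 CPM in WT (SD, n = 3 each). Its part in the IL-18 receptor values was not tested.

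Il1rl1, Il18r1 and Il18rap lie side by side in the IL-1 receptor gene cluster of chromosome 1 (mm10), which also holds Il1r2, Il1r1 and Il1rl2. Il1rl1 spans chr1:40429570-40465415, Il18r1 starts 36 kb and Il18rap 85.8 kb after the start of Il1rl1, and all 3 are on the plus strand. None of the cluster's 5 tested genes passed, and differences between them were not tested. Il1r2, which encodes a decoy receptor for IL-1 and whose start lies at -355.5 kb from that of Il1rl1, had 1134, 1627 and 1251 CPM in RBM3KO and 738, 987 and 895 CPM in WT. All its RBM3KO libraries were above all WT libraries, with a log2 fold change of 0.61 (SE 0.14, edgeR adjusted p = 0.0741), while Il18r1, next to Il1rl1, stood at -0.08. Il1r2 passed in 6 of the alternatives on all 6 libraries, which is set out under the dependence on processing. Il1rl2, the IL-36 receptor gene, had 0, 4.18 and 4.85 CPM in RBM3KO and 0.222, 2.59 and 1.49 CPM in WT, and Il1r1, the signalling receptor for IL-1, had 0, 2 and 0 counts in RBM3KO and 2, 0 and 20 counts in WT and was not tested. Of the flanking genes, Map4k4, a kinase gene, had a log2 fold change of -0.28 (SE 0.43, edgeR adjusted p = 0.889), and Slc9a2 was not tested for low counts.

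**Figure D3:**
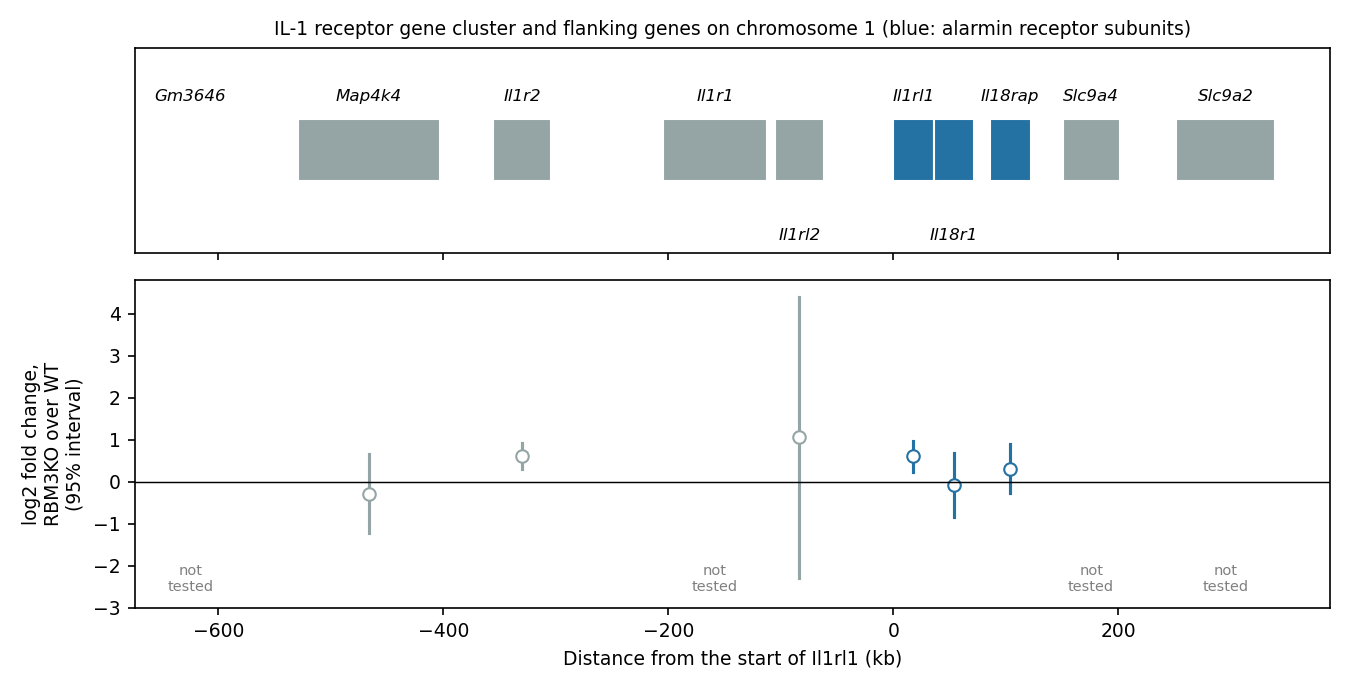
The IL-1 receptor gene cluster with 2 flanking genes per side, drawn to scale in kb from the start of Il1rl1, above the log2 fold change of RBM3KO over WT with its 95% interval for each tested gene. Il1r2 and Il1rl1 both lie at 0.61, and Il18r1, directly after Il1rl1, lies at -0.08.

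Levels between genes were compared per exon length, as TMM-normalised CPM per kilobase of exon (RPKM). In RBM3KO the order was Il1rl1 (80.3 ± 3.33), Il17rb (62 ± 5.98), Crlf2 (41 ± 0.982), Il7r (32.1 ± 2.16), Il17ra (25.2 ± 4.79), Il18rap (5.85 ± 1.34), Il18r1 (2.43 ± 0.433) and Il1rap (1.15 ± 0.459 RPKM, SD, n = 3 each). The libraries of neighbouring genes in that order overlapped for Il7r and Il17ra and for no other pair. In WT Il17rb came first at 53.1 ± 6.25 RPKM, followed by Il1rl1 at 52.7 ± 15.4, Crlf2 at 40.5 ± 9.13, Il17ra at 22.8 ± 3.06, Il7r at 21.1 ± 3.7, Il18rap at 4.69 ± 1.26, Il18r1 at 2.55 ± 0.284 and Il1rap at 0.285 ± 0.139 RPKM (SD, n = 3 each). There Il17rb and Il1rl1, Il1rl1 and Crlf2, and Il17ra and Il7r overlapped between libraries. Of the summed RPKM of the 8 subunits, Il1rl1 made up 30.4%, 31.8% and 34.2% in the RBM3KO libraries and 23.1%, 23.6% and 32.4% in the WT libraries, so that WT replicate 3 fell among the RBM3KO libraries. The length of Il1rap is uncertain, because its joined exons cover 11360 bases and its longest transcript 4520. Per longest transcript Il1rap reached 2.88 RPKM in RBM3KO and 0.717 RPKM in WT, and changed places with Il18r1 in RBM3KO. Without WT replicate 1, 4 of the 8 genes kept their place in the WT order.

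**Figure D4:**
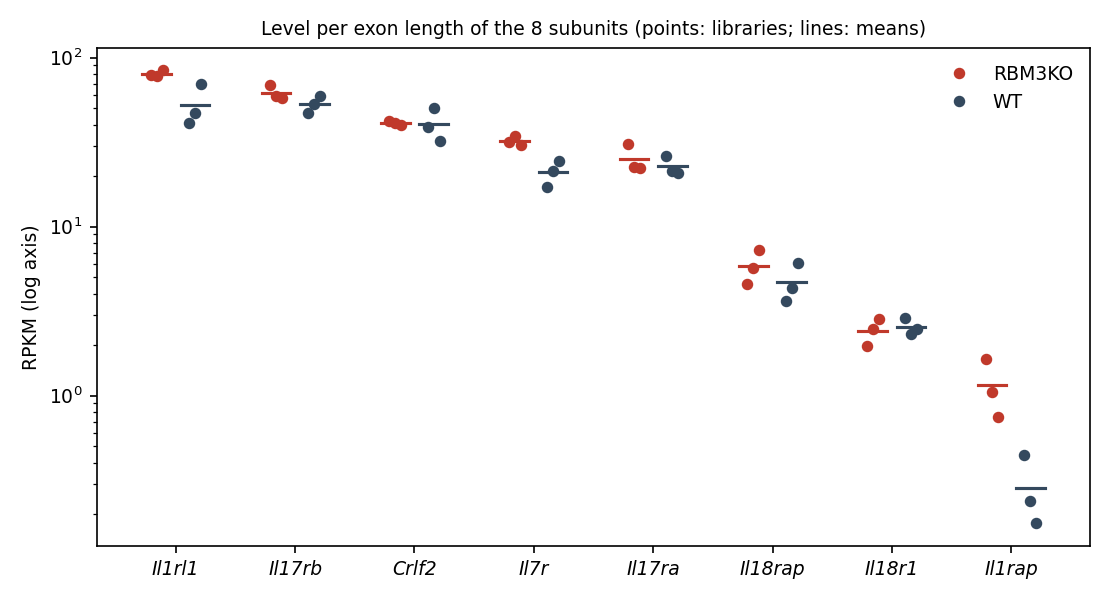
RPKM (log axis) of the 8 subunits in each library, RBM3KO left of WT within each gene and genes in the order of their RBM3KO means, with horizontal lines at the means. The first 5 subunits lie at or above 17.2 RPKM in every library, and Il18rap, Il18r1 and Il1rap at or below 7.26.

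Because a receptor needs both chains, the ratio of the second chain to the ligand-specific chain was taken within each library, where the scaling between libraries cancels. The ratio of Il7r to Crlf2 (both per exon length) was 0.754, 0.838 and 0.756 in RBM3KO and 0.444, 0.424 and 0.761 in WT. WT replicate 3 lay within the RBM3KO range, and the exact two-sided permutation test gave p = 0.3. The ratio of Il1rap to Il1rl1 was 0.0208, 0.0135 and 0.00889 in RBM3KO and 0.0108, 0.00506 and 0.00251 in WT (exact permutation p = 0.2). That of Il18rap to Il18r1 was 2.34, 2.29 and 2.57 in RBM3KO and 1.27, 1.87 and 2.46 in WT (exact permutation p = 0.3), and that of Il17ra to Il17rb was 0.446, 0.382 and 0.384 in RBM3KO and 0.559, 0.403 and 0.349 in WT (exact permutation p = 0.8). All 4 ratios overlapped between the genotypes, and over the 4 tests the Benjamini-Hochberg adjusted p ran from 0.4 to 0.8. With 3 libraries per genotype the smallest exact p is 0.1. The sums over all transcripts of a gene stand behind these ratios, so they are not ratios of receptor chains at the cell surface.

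Set against Gata3, the lineage factor of ILC2s, which stood at 695 ± 141 CPM in RBM3KO and 639.9 ± 54 CPM in WT (SD, n = 3 each), the separation held for 2 of the 3 subunits. The count of Il7r relative to that of Gata3 was 0.227, 0.188 and 0.241 in RBM3KO and 0.134, 0.161 and 0.164 in WT, and that of Il1rap was 0.0289, 0.0139 and 0.0145 in RBM3KO and 0.00839, 0.00436 and 0.00285 in WT, each without overlap (exact permutation p = 0.1, the smallest possible, and 0.4 adjusted over 8 subunits). Il1rl1 relative to Gata3 was 0.842, 0.627 and 0.992 in RBM3KO and 0.472, 0.523 and 0.689 in WT, and these ranges overlapped (exact permutation p = 0.2). Gata3 had a log2 fold change of 0.12, below the median of 0.49 of the 10 ILC2 markers. All 10 ILC2 marker estimates were above 0, against 50.9% of tested genes. Of these markers 0 passed and 7 were separated as higher in RBM3KO, against 8.43% of tested genes. Ratios to ILC2 markers other than Gata3 were not taken. Relative to Thy1, 1 of the 8 subunits was separated, Il1rap, at 0.196, 0.115 and 0.077 in RBM3KO and 0.0432, 0.025 and 0.0227 in WT (exact permutation p = 0.1, or 0.8 adjusted over 8). These ratios, like those between chains, were added after the values of the subunits were known.

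Among the genes that act with the receptors, 1 passed the test over all genes. Il2rg, which encodes the common gamma chain that pairs with the Il7r product in the IL-7 receptor and is not part of the TSLP receptor, rose in RBM3KO. It had 2646, 2968 and 2594 CPM in the RBM3KO libraries and 2105, 2108 and 2024 CPM in the WT libraries, without overlap, with a log2 fold change of 0.40 (SE 0.08, edgeR adjusted p = 0.0393). It no longer passed when any 1 of the 6 libraries was left out (edgeR adjusted p from 0.0506 to 0.194) and with the replicate number as a block (0.0535). The annotated gene Gm20489 covers 30.5% of the exon bases of Il2rg on the same strand, and reads there are uncertain.

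Of the 13 tested genes of the JAK-STAT arm, 1 was higher (Il2rg), 0 were lower and 12 did not pass, against 1.25% of all tested genes called in either direction. In that arm 13 estimates were above 0, against 50.9% of all tested genes, and the median of 0.18 lay at 0.12 without WT replicate 1 and at 0.3 without WT replicate 2. Cish, a STAT5-induced inhibitor of cytokine signalling, stood at 1362 ± 30.4 CPM in RBM3KO and 1108 ± 108 CPM in WT (SD, n = 3 each; log2 fold change 0.30, edgeR adjusted p = 0.168). Of the 20 genes of the MyD88 arm 0 passed and the median was 0.12, or -0.05 without RBM3KO replicate 2. In the MyD88 arm 12 estimates were above 0 and 8 below. There 3 genes were separated as lower in RBM3KO and 0 as higher, against 10.5% and 8.43% of all tested genes. Nfkb1, a subunit of NF-kB, stood at 270.1 ± 58.2 CPM in RBM3KO and 281 ± 46.5 CPM in WT (SD, n = 3 each), and Rela, its partner, at 228 ± 20.3 CPM in RBM3KO and 256 ± 18.7 CPM in WT. Of 7 tested genes of the Act1 arm 0 passed, with a median of -0.11 that changed sign without 5 of the single libraries, up to 0.21, and at equal depth (0.07). Traf2, an adaptor of TNF and IL-17 receptors, stood at 171 ± 26.5 CPM in RBM3KO and 145 ± 3.19 CPM in WT (SD, n = 3 each), and Traf4 at 124 ± 26.2 CPM in RBM3KO and 107 ± 29.5 CPM in WT. For all tested genes the median was 0.01. At an unadjusted edgeR p under 0.05 there were 1, 3 and 0 genes in the MyD88, JAK-STAT and Act1 arms, against 12.3% of all tested genes. The 1 in the MyD88 arm was lower in RBM3KO, and the 3 in the JAK-STAT arm were higher.

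Of the IL-1 receptor relatives 3 were tested and 0 passed. Beside Il1r2, Sigirr, which encodes a receptor that dampens IL-1 and IL-33 signals, stood at 258 ± 46.7 CPM in RBM3KO and 226 ± 1.91 CPM in WT (SD, n = 3 each; log2 fold change 0.19, edgeR adjusted p = 0.641). Per exon length the decoy gene Il1r2 reached 701 ± 135 RPKM in RBM3KO and 458 ± 65.8 RPKM in WT, above each of the 8 subunits in every library.

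Of the alarmins themselves, Il33 and Il18 were at or near 0 in most of the sorted samples, and Tslp and Il25 were not analysed here. Il33 had 0, 0 and 1 counts in RBM3KO and 0 in each WT library, and Il18 had 0 in each RBM3KO library and 0, 11 and 62 counts in WT. Both were named for their role as ligands and fell below the filter. Of 4 tested ligands, antagonists and enzymes 0 passed. Casp1, whose product processes IL-18, stood at 34.3 ± 5.15 CPM in RBM3KO and 20.4 ± 10.4 CPM in WT (SD, n = 3 each; log2 fold change 0.75, edgeR adjusted p = 0.483), without overlap.

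Of 7 cytokine genes that ILC2s make after alarmin signals 0 passed, 7 estimates were above 0, and 6 did not overlap between the genotypes, with a median log2 fold change of 0.68. Among all tested genes 50.9% of estimates were above 0, and 8.43% were separated as higher in RBM3KO. Areg, which encodes the repair factor amphiregulin, had 1829, 1385 and 1670.2 CPM in RBM3KO and 923, 742 and 1381 CPM in WT. As with Il1rl1 and Il7r, WT replicate 3 was the highest WT library and nearest to RBM3KO. Il5, the eosinophil growth factor gene, had 914, 891 and 818 CPM in RBM3KO and 570.2, 587 and 723 CPM in WT, again with replicate 3 as the highest WT library. The members of this list overlap with the ILC2 markers.

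**Figure D5:**
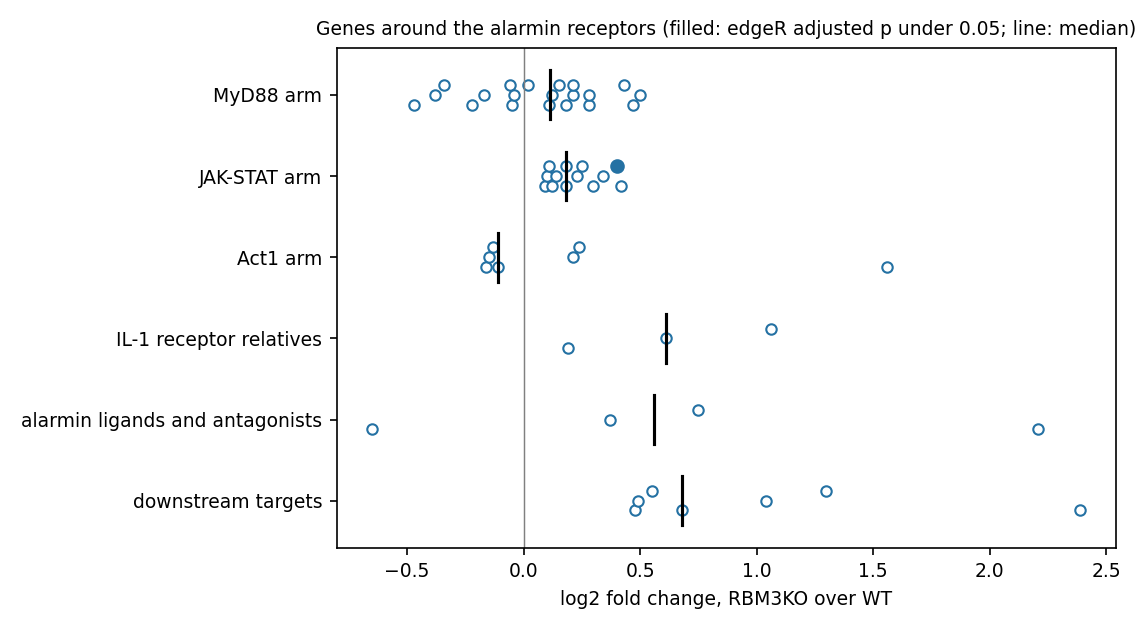
Log2 fold change of RBM3KO over WT for the tested genes of 6 lists around the alarmin receptors, 1 point per gene, with a vertical line at each list's median and filled points for an edgeR adjusted p under 0.05. Il2rg in the JAK-STAT arm is the only filled point, and the 7 downstream targets all lie above 0.

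Markers of ILC2s and of other cells were summed in each library. The 10 ILC2 markers together, as CPM of the total count, ran from 7578 to 8058 in RBM3KO and from 5698 to 6815 in WT, with Arg1, an arginase of ILC2s, the highest of them at 2922 ± 412 CPM in RBM3KO and 2197 ± 117 CPM in WT (SD, n = 3 each). Il17a, a cytokine gene of ILC3s, had 26.7, 33.6 and 38.9 CPM in RBM3KO and 10.9, 7.88 and 21.9 CPM in WT, without overlap (edgeR adjusted p = 0.168). Of 6 B cell markers 5 had values and summed to between 39.3 and 44.2 CPM in RBM3KO and between 58.3 and 84.4 CPM in WT, led by Cd79b. Of 9 macrophage and dendritic cell markers 8 had values, led by Lyz2, and summed to between 3.91 and 66 CPM in RBM3KO and between 27.3 and 167 CPM in WT. The 8 T cell markers summed to between 522 and 681 CPM in RBM3KO and between 439 and 556 CPM in WT, nearly all of it from Lat and Cd3g. Cd5 had 0 counts in each RBM3KO library and 18, 4 and 0 counts in the WT libraries. Cd8b1 had 0, 0 and 11 counts in RBM3KO and 6, 192 and 154 counts in WT. Cd3d had 4.31, 9.73 and 9.15 CPM in RBM3KO and 8.72, 32.7 and 8.5 CPM in WT. The 2 highest of these markers had estimates above 0. Lat had 346, 335 and 324 CPM in RBM3KO and 259.9, 268 and 289 CPM in WT, without overlap (edgeR adjusted p = 0.187). Cd3g had 163, 313 and 252 CPM in RBM3KO and 145, 194 and 193 CPM in WT, with overlap (edgeR adjusted p = 0.414). Of the 6 tested T cell markers 3 estimates were above 0 and 3 below. Mast cells and basophils also carry ST2. Of their 7 markers 4 had values and summed to between 83.5 and 120 CPM in RBM3KO and between 75.5 and 108 CPM in WT, mostly from Kit. The chymase gene Cma1 had 0 counts in each RBM3KO library and 75, 100 and 0 counts in the WT libraries. Cpa3, another of these markers, had 12.5, 15.3 and 12.7 CPM in RBM3KO and 17.1, 12.6 and 21.7 CPM in WT. For Cpa3 the genotypes overlapped. Epithelial, stromal and endothelial markers summed to between 75.4 and 317 CPM in RBM3KO and between 60 and 144 CPM in WT, with Sftpc, the surfactant protein C gene, at 248 CPM in RBM3KO replicate 3. Neutrophil and eosinophil markers stayed at or below 8.94 CPM in RBM3KO and 1.37 CPM in WT, and erythroid and platelet markers at or below 1.7 CPM in RBM3KO and 1.35 CPM in WT. In 0 of these lists did a member pass the test, and their part in the subunit values was not tested.

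AUUUA is the core pentamer of AU-rich elements, through which RNA-binding proteins of several families act on mRNA. It was counted in the 3′ untranslated region of 1 transcript per gene (GENCODE M21), where DNA letters give ATTTA. Il7r had 6 matches, Il1rap 4 and Il1rl1 3, and among the subunits with overlapping genotypes Il17ra had 6, Il18rap 4, Il17rb 1, Il18r1 1 and Crlf2 0. Of 11419 genes 67.5% had at least 1 match and 19.4% had 5 or more. The regions of Il1rl1, Il1rap and Il7r measured 3246, 2196 and 2067 bases, against a median of 1005. Per kilobase they had 0.924, 1.82 and 2.9 matches, against a median of 1.24. The other subunits had from 0 (Crlf2) to 2.04 (Il17rb) per kilobase. The match counts of the subunits with separated genotypes lay within the range of those that overlapped. Per kilobase Il7r lay above that range. A match from each of the genes with separated genotypes is shown with its flanks, 5′ to 3′, the pentamer in capitals.
Il1rl1: tatcttATTTAtctacc
Il1rap: taaatcATTTAatagac
Il7r: ttgactATTTAtccagc
Binding by RBM3 was not measured in these data.

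Genes with a pattern over the 6 libraries most like that of a subunit were ranked by Pearson's r of log2 CPM among 7169 named genes with a mean of at least 10 CPM. With 6 libraries and so many genes, high values arise readily, and the rankings are a description. For Il1rl1 the first was Gch1 (r = 0.9934), followed by Map3k11 and Mut. For Il7r the first was Ctsl (r = 0.9989), followed by Vat1 and Ero1l. For Crlf2 it was Emp1 (r = 0.9842), for Il17rb Rasal3 (0.9934), for Il17ra Ints3 (0.9896) and for Il18rap Akap8l (0.988). Il1rap lay below 10 CPM on average and was not ranked. None of the other 7 subunits was among the 3 nearest genes of another.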

How the data were processed

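Per the labels' protocols, polyA RNA was extracted with a miRNeasy kit and prepared by Smart-seq2 and Nextera XT, which in standard form mark neither strand nor molecules. The authors deposited raw read counts per gene symbol, 1 column per sample, with 0 columns of other samples. Per the submitters' processing notes the tools included featureCounts 1.6.5, STAR 2.6.1c and Bowtie 1.0.0, with the build mm10. Which annotation and strand setting stood behind the counts is not stated. Genes were filtered with filterByExpr, scaled by TMM and tested by quasi-likelihood in edgeR 4.0.16 under R 4.3.3 (robust fit, genotype as the only term), with Benjamini-Hochberg adjustment over 11382 genes and a threshold of 0.05. The SE is the log2 fold change divided by the square root of F, and intervals are at 95%. DESeq2 1.42.0, limma-voom (limma 3.58.1), other filters and scalings, equal depth, a replicate block and leaving out each library were alternatives. The fit was tested on simulated data. A count of 0 allows up to 3 counts, or 0.12 to 0.4 CPM, for counting error only. No libraries were identical (lowest chi-square per degree of freedom 21.5). RPKM used the joined exons of GENCODE M21 (GRCm38). Named genes were the subunits, Rbm3, list members that passed or had the highest means, cluster neighbours and the nearest patterns. Thy1, Id2, the ligands Il33 and Il18, Gata3, Cd5, Cd8b1, Cd3d, Cma1 and promoter motifs were chosen outside that rule. Not every gene the rule takes is printed. The subunits and lists were chosen with earlier results of these data known. The nearest pattern to Il18r1 and the summed ILC3 markers are not reported here.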

Additional observations from a re-analysis of the deposited data

How the results depend on the processing

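Of 119 log2 fold changes of the subunits under 15 alternatives, 114 kept their side of the threshold, 5 newly passed it, and 5 changed sign (of Crlf2, Il17ra and Il18r1). With DESeq2 the log2 fold changes of Il1rl1 (0.61), Il1rap (2.02) and Il7r (0.61) passed, so 3 subunits were called, against 0 with edgeR. At 10 CPM or more in 3 libraries 1 subunit, Il7r (0.61), passed, where 212 genes were called over all genes. Without single libraries between 0 and 1 subunits passed, and Il1rl1 ran from 0.45 to 0.86, passing without WT replicate 3. Over all genes 434 were called by DESeq2, against 142. Between 12 and 99 were called without single libraries, where fewer samples give the test less to work with. With no filter 190 genes were called, at 10 CPM or more 212, with limma-voom 186, at equal depth 167 and with upper-quartile scaling 142. DESeq2 called 3.50% of its genes, limma-voom 1.63% and the main fit 1.25%. The 6 lists around the receptors had 20, 13, 7, 3, 4 and 7 tested genes, of which 1 passed (Il2rg). With DESeq2 6 passed (Il2rg, Il1r2, Il4, Il5, Cish and Il17rc). Il17rc was not tested in the main fit for low counts. Its counts were 33, 0 and 45 in RBM3KO and 0 in each WT library. There were 3 with no filter, 3 at 10 CPM or more, 3 with limma-voom and 3 at equal depth (Il2rg, Il1r2 and Il5 in each). With upper-quartile scaling 2 passed (Il2rg and Il5), and without single libraries between 0 and 2. The cause of these differences was not tested. The deviations of same-numbered libraries of the genotypes had correlations of 0.06, 0.06 and 0.01, and those of differently numbered libraries -0.07 to 0.02. Whether the numbers pair the samples cannot be settled from 3 libraries per genotype. With the replicate block 149 genes and 0 subunits were called, and 2 genes around the receptors (Il1r2 and Areg). In the WT order of levels between 4 and 6 of 8 places were kept without single libraries. The median of all genes was 0.01 with TMM and with DESeq2's size factors and 0.03 with upper-quartile scaling. Il1rap and Il18r1 had the lowest counts, with as few as 46 and 101 counts in a library.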
